A study of Homo sapiens with 24 samples.

Results

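The 10 genes described here are 4 CXC chemokine ligands (CXCL1, CXCL2, CXCL3 and CXCL8) and 6 genes of the NF-kB pathway that NF-kB itself induces: the inhibitors NFKBIA and TNFAIP3, the NF-kB subunits RELB, NFKB1 and NFKB2, and the apoptosis inhibitor BIRC3. They were taken by name, but with earlier results of these data known, and are 10 of the 62754 genes in the count table. Of the 233113 annotated introns in the intron tables, 100 lie in them. RKO is an established human colon carcinoma line, here carrying a doxycycline-inducible Cas9 together with a constitutively expressed guide RNA against ERH (sgERH), a small nuclear protein with a role in RNA processing, or against AAVS1 (sgAAVS1), the control locus. The chemokines lie on chromosome 4 (GRCh38): CXCL8 at 73740519 to 73743716 and CXCL1 at 73869393 to 73871308 on the plus strand, CXCL3 at 74036589 to 74038807 and CXCL2 at 74097040 to 74099196 on the minus strand. NFKB1 is on the same chromosome at 102501330 to 102617302, NFKB2 on chromosome 10 at 102394110 to 102402524, BIRC3 on chromosome 11 at 102317484 to 102339403, TNFAIP3 on chromosome 6 at 137867214 to 137883314 and RELB on chromosome 19 at 45001461 to 45038192, all on the plus strand, and NFKBIA is on chromosome 14 at 35401079 to 35404749 on the minus strand. All cells received 100 ng/mL doxycycline for 5 days to induce cutting, then 4 h of 25 µg/mL cycloheximide (CHX), which blocks translation, or of its solvent DMSO, and were separated into nucleus and cytoplasm before poly(A) RNA-seq. Guide, treatment and fraction gave 8 groups of 3 libraries: sgAAVS1 with DMSO, sgERH with DMSO, sgAAVS1 with CHX and sgERH with CHX in each fraction. Doxycycline and Cas9 were thus shared by every group, and the guide-bearing cells were sorted populations in which edited and unedited alleles can be mixed. The labels number 3 biological replicates per group without saying whether they were separate cultures, so p-values measure the spread between these libraries, which may be technical.

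NF-kB is a family of dimeric transcription factors that inhibitor proteins hold in the cytoplasm of resting cells. Signals such as TNF, IL-1 or bacterial products lead to destruction of the inhibitor, the dimer enters the nucleus, and among its first targets are the genes for its own inhibitors and for chemokines that attract neutrophils. The mRNAs of these early genes are usually short-lived, many of them through AU-rich sequences after the stop codon, and translation inhibitors have long been known to raise them. Intestinal epithelial and colon carcinoma cells make the same chemokines under inflammatory stimuli.

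Library totals were 44 to 79.5 M counts in the cytoplasm and 27.8 to 41.8 M in the nucleus, and no 2 libraries held identical values. Cytoplasmic ERH with DMSO was 137, 158 and 152 counts-per-million (CPM) in sgAAVS1 and 72.9, 86.9 and 59.4 CPM in sgERH libraries, a log2 fold change of -1.03 ± 0.11 (SE; adjusted p = 1.12e-06). The ERH difference was -0.72 ± 0.11 in the cytoplasm with CHX, -0.48 ± 0.16 in the nucleus with DMSO and -0.12 ± 0.16 in the nucleus with CHX (adjusted p = 0.59). Mitochondrially encoded mRNAs took 3.29 to 3.78% of the counts of cytoplasmic sgAAVS1 libraries with DMSO and 5.15 to 6.22% in sgERH. Of 11 colon epithelial markers, 5 to 7 lay under 0.1 CPM, KRT20, CDX1, CDH1 and CDH17 in all 8 groups. KRT18, KRT8, CDX2 and EPCAM were expressed, with medians over the libraries of 112, 44.5, 8.79 and 3.82 CPM. The leukocyte list summed to 59.6 to 95.2 CPM in nuclear sgAAVS1 and 157 to 218 CPM in nuclear sgERH libraries with DMSO, mostly from CD68, while CD3E, MS4A1 and FCGR3A stayed under 0.1 CPM in all groups. In the cytoplasm the sums were 300 to 352 and 369 to 393 CPM. ITGAM, at most 18.9 CPM in any library, was called higher in sgERH with DMSO in both fractions, CD68 in the nucleus, and 0 were lower. The fibroblast and endothelial list summed to 32.4 to 33.5 CPM in cytoplasmic sgAAVS1 and 22.3 to 22.8 CPM in cytoplasmic sgERH libraries with DMSO. The nuclear RNAs NEAT1, MALAT1 and KCNQ1OT1 were at 1.06 ± 0.08, 0.46 ± 0.08 and 1.74 ± 0.19 (log2, SE) in sgERH against sgAAVS1 in the cytoplasm with DMSO, and at 0.92 ± 0.08, 0.51 ± 0.08 and 1.06 ± 0.19 with CHX. The part of these differences in the results below was not tested.

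The promoters of the members are shown first, with their letter matches to the kB consensus. The RefSeq promoter table (GRCh38.p14, 250 bases before to 50 after each start) held 12 promoters for 9 of the members, all but RELB. Below is 1 window per gene around the kB consensus match nearest to the start of that promoter, read 5′ to 3′ on the strand of the gene. Consensus matches are in capitals. CXCL8 had none, so its matches to a relaxed form with any first base are capitalised instead. Other relaxed matches, as between the capitals and the start in CXCL1, CXCL2 and CXCL3, stay in lower case.
CXCL1 (chr4:73869289-73869369, plus strand): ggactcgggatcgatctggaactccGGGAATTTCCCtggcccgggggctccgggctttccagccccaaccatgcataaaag
CXCL2 (chr4:74099218-74099298, minus strand): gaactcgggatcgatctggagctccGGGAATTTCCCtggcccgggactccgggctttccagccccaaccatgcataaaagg
CXCL3 (chr4:74038713-74038793, minus strand): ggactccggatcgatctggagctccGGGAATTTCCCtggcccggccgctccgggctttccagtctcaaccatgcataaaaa
CXCL8 (chr4:73740452-73740532, plus strand): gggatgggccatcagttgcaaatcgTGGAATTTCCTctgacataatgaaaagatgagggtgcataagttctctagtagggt
NFKBIA (chr14:35404776-35404855, minus strand): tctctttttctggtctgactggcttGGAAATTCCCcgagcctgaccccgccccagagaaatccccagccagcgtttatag
TNFAIP3 (chr6:137867167-137867258, plus strand): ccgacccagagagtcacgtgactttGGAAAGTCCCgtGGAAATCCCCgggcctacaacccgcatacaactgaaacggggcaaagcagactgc
NFKB1, promoter 1 of 2 (chr4:102501285-102501358, plus strand): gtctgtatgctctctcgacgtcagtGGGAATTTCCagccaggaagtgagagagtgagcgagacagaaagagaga
NFKB2, promoter 2 of 3 (chr10:102394446-102394554, plus strand): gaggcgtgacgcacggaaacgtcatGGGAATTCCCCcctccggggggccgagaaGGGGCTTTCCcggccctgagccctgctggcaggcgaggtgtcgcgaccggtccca
BIRC3 (chr11:102317324-102317403, plus strand): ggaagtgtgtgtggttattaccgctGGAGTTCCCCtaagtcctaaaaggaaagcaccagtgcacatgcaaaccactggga

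The windows of CXCL1, CXCL2 and CXCL3, which lie in one cluster on chromosome 4, read nearly alike. Their last consensus match sat at bases -78 to -69, -77 to -68 and -78 to -69 before the start. The core GGAATTTCC, searched on both strands over the 250 bases before the start, was found in 6 of the 12 member promoters and in 0.413% of all 35116 promoters. The kB consensus, also on both strands, was found in 9 of 12 and in 9.96% of all, and a relaxed form that allows any first base, which includes every consensus match, in 11 of 12 and 28.3% of all. Promoter 3 of NFKB2, not printed, had its last consensus match at -21 to -12, promoter 1 had no match of either form, and promoter 2 of NFKB1 matched only the relaxed form. The CXCL8 match fell under the relaxed form alone. TGACTCA, the AP-1 site, occurred in 1 member promoter, that of CXCL8, against 4.2% of all promoters, and TATAAA in 1 against 6.8%. These are letter matches and say nothing about binding in these cells.

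The stretch after the stop codon was read in 1 annotated mRNA per member (the canonical transcript). ATTTA, the pentamer at the heart of AU-rich elements, occurred 10 times in 716 bases in CXCL2, 7 times in 673 in CXCL3, 9 times in 1252 in CXCL8, 6 times in 772 in CXCL1 and 12 times in 2301 in BIRC3. The densities of the 4 chemokines, 7.19 to 14 per kb, compare with a median of 1.52 per kb over 19229 mRNAs. NFKBIA had 6 per kb, NFKB2 6.76 (1 pentamer in 148 bases), NFKB1 4.24 and TNFAIP3 2.51, and RELB had none in 402 bases. The longer TATTTAT occurred in 7 of the 10 members and in 31.7% of all mRNAs.

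Levels between genes are compared as transcripts-per-million (TPM), which corrects for length. In the cytoplasm of sgAAVS1 cells with DMSO, NFKB1, which encodes the p105 precursor of p50, had the highest level, at 39.3 ± 0.895 TPM (SD, n = 3). It was followed by NFKB2, the gene of the p100 precursor of p52, at 21.8 ± 0.692, NFKBIA, the gene of the inhibitor IkBα, at 20.3 ± 0.783, and RELB, the partner of p52, at 10.3 ± 0.909 TPM. BIRC3 stood at 4.6 ± 0.911, TNFAIP3 at 1.34 ± 0.193 and CXCL8 at 1.28 ± 0.287 TPM, and the means of TNFAIP3 and CXCL8 lay within 1 SD of each other. The other chemokines were lowest, with CXCL3 at 0.667 ± 0.183, CXCL1 at 0.412 ± 0.0576 and CXCL2 at 0.365 ± 0.0977 TPM, and CXCL1 and CXCL2 did not differ beyond their spread. Those chemokine values rest on few reads, 12 to 38 counts a library for cytoplasmic CXCL2 with DMSO over both guides. CXCL1, CXCL2 and CXCL3 are close copies of one another, so reads could be divided between them by the quantification, and their single values are less certain than those of the other members.

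In the nucleus of the same cells the order was led by NFKB2 at 274 ± 8.13 TPM, above NFKB1 at 51.6 ± 3.31 and NFKBIA at 33.5 ± 4.12. RELB had 23.8 ± 6.38, BIRC3 12.2 ± 2.69, TNFAIP3 4.86 ± 1.08, CXCL3 3.69 ± 1.43, CXCL2 3.37 ± 1.48, CXCL1 1.6 ± 1.4 and CXCL8 1.52 ± 0.458 TPM. TNFAIP3, CXCL3 and CXCL2 overlapped in their spread, as did CXCL1 and CXCL8. Each fraction was scaled to its own total, so these levels are shares of nuclear or of cytoplasmic poly(A) RNA, and fewer molecules per cell cannot be told apart from more of other RNAs.

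**Figure D1:**
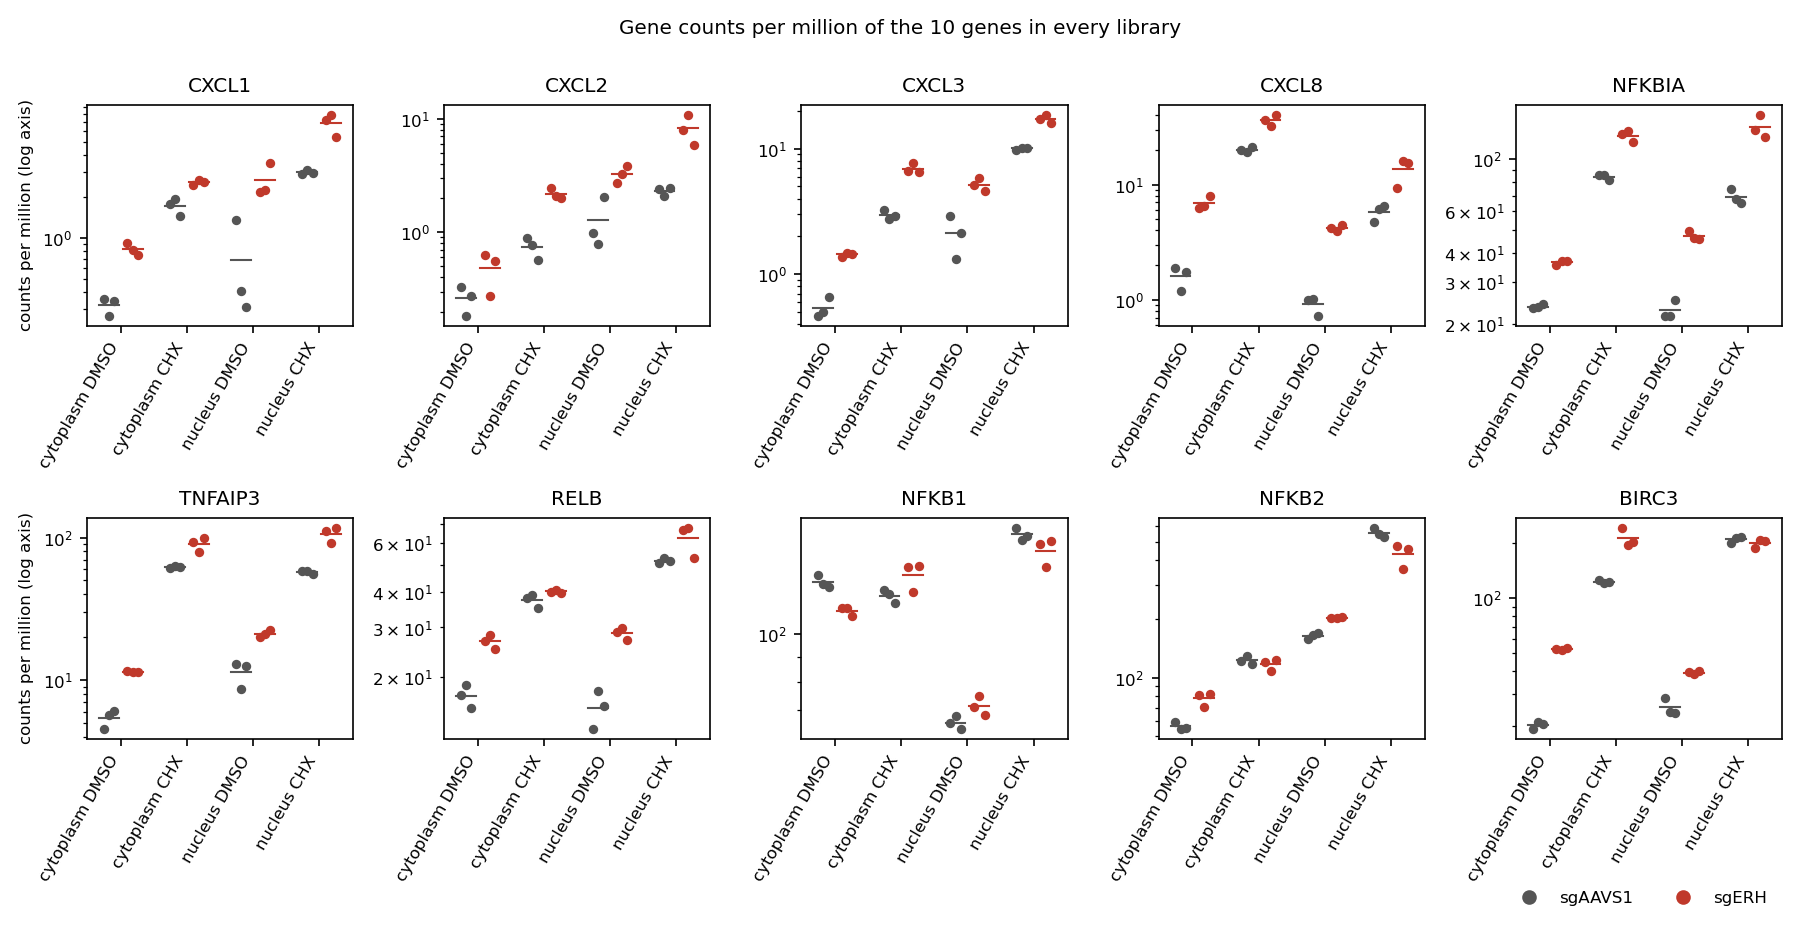
CPM (log axes, each with its own range) of each of the 10 members in the 24 libraries, by fraction, guide and treatment; each point is 1 library and each line a group mean. CXCL8 lies at 1.18 to 1.87 CPM in cytoplasmic sgAAVS1 libraries with DMSO and at 32.1 to 40.6 CPM in sgERH with CHX, while cytoplasmic NFKB1 lies between 109 and 138 CPM in all 12 libraries.

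The first comparison asked which members differ between sgERH and sgAAVS1 in the cytoplasm with DMSO. The 3 chemokines CXCL8, CXCL3 and CXCL1 rose, as did TNFAIP3 and BIRC3, which makes 5 of 10 members higher and 0 lower (1, NFKB1, was lower at an unadjusted p under 0.05, and DESeq2 also gave 5 higher and 0 lower). The same thresholds (adjusted p of at most 0.05 and a log2 change of at least 1) called 9.3% of all 16130 genes higher and 2.16% lower. The median log2 difference was 1.00 over the members and 0.04 over all genes tested; over the 3 nuclear RNAs tested it was 1.06, and their part was not tested. Of the 5 members that were not called, CXCL2, NFKBIA, RELB and NFKB2 were above 0 and NFKB1 below.

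CXCL8, the neutrophil chemoattractant interleukin-8, showed the largest difference among the members. Its level was 1.87, 1.18 and 1.74 CPM in sgAAVS1 and 6.33, 6.48 and 7.89 CPM in sgERH libraries, with no overlap, and the fitted change was 4.35-fold (log2 2.12 ± 0.15 SE, adjusted p = 6.6e-09). CXCL3, a ligand of the same receptor, had 0.467, 0.496 and 0.654 CPM against 1.38, 1.48 and 1.46 CPM. Every sgERH library stood above every sgAAVS1 library (log2 1.42 ± 0.18, adjusted p = 4.19e-06). CXCL1 had 0.358, 0.269 and 0.345 CPM against 0.92, 0.819 and 0.751 CPM, again apart (log2 1.36 ± 0.24, adjusted p = 0.000125). CXCL2 had 0.327, 0.184 and 0.273 CPM against 0.625, 0.273 and 0.563 CPM; the second sgERH library lay within the control range, and the log2 difference of 0.92 ± 0.35 (adjusted p = 0.0346) missed the size threshold. Without that library CXCL2 was called at 1.19 (adjusted p = 0.00696), and without the first sgAAVS1 library at 1.15 (adjusted p = 0.0246).

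Among the inhibitors, TNFAIP3, the ubiquitin-editing enzyme A20 that shuts down signalling above NF-kB, had 4.54, 5.65 and 6.05 CPM in sgAAVS1 and 11.5, 11.4 and 11.3 CPM in sgERH. The sgERH libraries were nearly identical and all above the controls (log2 1.07 ± 0.10, adjusted p = 2.23e-07). Leaving out the first sgAAVS1 library gave 0.99 (adjusted p = 1.05e-06), just under the size threshold. BIRC3, the ubiquitin ligase cIAP2 of the TNF receptor complex, had 19.4, 21.2 and 20.6 CPM against 52.9, 52.1 and 53.6 CPM. The libraries of each guide lay close together and the guides far apart (log2 1.37 ± 0.07, adjusted p = 2.78e-10). NFKBIA had 23.3, 23.6 and 24.2 CPM against 35.6, 37.1 and 36.9 CPM, groups well apart with a log2 difference of 0.62 ± 0.05 (adjusted p = 7.84e-08) that missed the size threshold.

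Among the subunits, RELB was at 0.64 ± 0.07 (adjusted p = 1.81e-06) and NFKB2 at 0.48 ± 0.07 (adjusted p = 1.72e-05) on the log2 scale. NFKB2 had 59.3, 54.5 and 55.3 CPM in sgAAVS1 and 81.6, 71 and 82.5 CPM in sgERH, without overlap. NFKB1 stood on the other side of 0, with 132, 127 and 125 CPM against 113, 113 and 109 CPM (log2 -0.20 ± 0.05, adjusted p = 0.00551). All 10 members passed the adjusted p threshold in this comparison, and for 5 of them only the size threshold was missed. Over all genes the adjusted p alone passed 9215 of 16130.

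In the nucleus with DMSO the 4 chemokines and NFKBIA rose, 5 of 10 members, beside 4.77% of 17330 genes higher; 0 members were lower, beside 1.73%. The median log2 difference was 0.97 over the members and 0.03 over all genes. CXCL8 had 0.995, 1.02 and 0.727 CPM in sgAAVS1 and 4.16, 3.95 and 4.5 CPM in sgERH, groups far apart (4.57-fold, log2 2.19 ± 0.25, adjusted p = 2.54e-06). CXCL1 had 1.34, 0.409 and 0.311 CPM against 2.17, 2.22 and 3.51 CPM. The first sgAAVS1 library stood apart from the other two but stayed below the sgERH libraries, and the log2 difference of 1.92 ± 0.39 (adjusted p = 0.000994) was 2.85 (adjusted p = 1.84e-05) without it. CXCL2 (1.36 ± 0.32) and CXCL3 (1.29 ± 0.21) rose by similar amounts.

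NFKBIA had 21.7, 21.7 and 25.3 CPM in nuclear sgAAVS1 and 49.6, 46.2 and 45.9 CPM in nuclear sgERH libraries, a clear separation (log2 1.05 ± 0.10, adjusted p = 3.44e-07). TNFAIP3 and RELB reached 0.89 ± 0.13 and 0.88 ± 0.11 on the log2 scale, with adjusted p = 3.83e-05 and 1.17e-05, under the size threshold. BIRC3 had 28.5, 24 and 23.7 CPM against 39.4, 38.6 and 40.1 CPM (log2 0.63 ± 0.08). NFKB2 was at 0.31 ± 0.09 and NFKB1 at 0.11 ± 0.07 (adjusted p = 0.24). The leukocyte list, whose sums are given above, was higher in these sgERH libraries too, and its part was not tested.

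The effect of the guide was compared between the fractions in one fit of the 12 DMSO libraries. Same-numbered nuclear and cytoplasmic libraries may come from the same lysed cells, and the main fits between fractions did not pair them. By edgeR and by DESeq2 0 of the 10 members passed both thresholds, beside 5.73% of 16856 genes, but 3 had an unadjusted p under 0.05 in edgeR, and the same 3 passed its adjusted p. The adjusted p alone passed 5511 of these 16856 genes. The log2 effect was larger in the nucleus for NFKBIA, by 0.44 ± 0.11 (adjusted p = 0.00357), and for NFKB1, by 0.33 ± 0.08 (adjusted p = 0.0029). It was smaller in the nucleus for BIRC3, at -0.72 ± 0.11 (adjusted p = 9.44e-05). CXCL8 had a difference of 0.09 ± 0.31 (adjusted p = 0.857). CXCL1, at 0.58 ± 0.64, turned on 1 library: without the first nuclear sgAAVS1 library its difference was 1.52 (adjusted p = 0.0486).

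**Figure D2:**
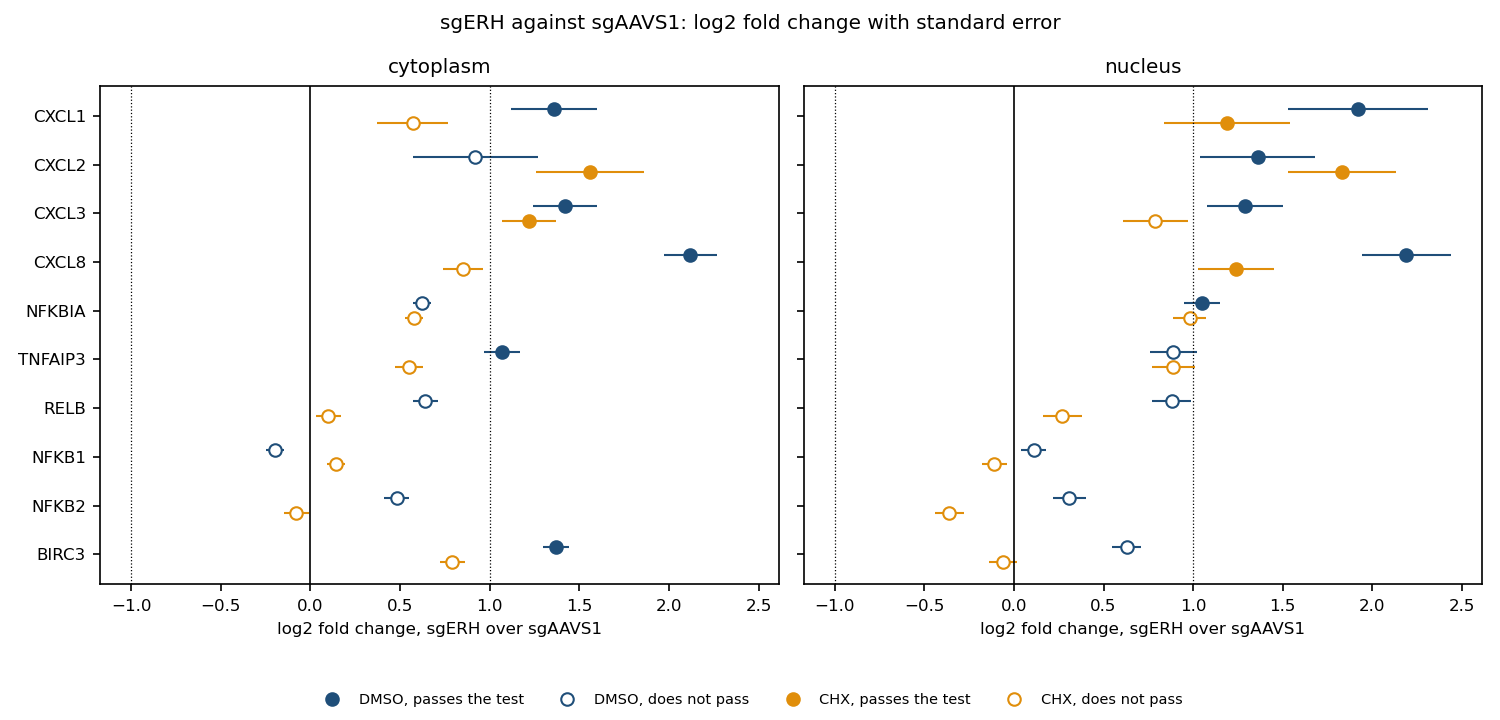
Log2 fold change of sgERH against sgAAVS1 for each member, with its standard error, in the cytoplasm and the nucleus with DMSO and with CHX; dotted lines mark the size threshold of 1 in either direction, and filled points passed both thresholds. CXCL8 leads with DMSO at 2.12 in the cytoplasm and 2.19 in the nucleus, and NFKB1 stays between -0.20 and 0.14.

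The second comparison asked what 4 h of CHX does to the members in control cells. In the cytoplasm of sgAAVS1 cells 9 of 10 members rose, beside 13.6% of all genes, and 0 fell, beside 6.31%. The median log2 change was 2.11 over the members and -0.02 over all genes. CXCL8 went from 1.87, 1.18 and 1.74 CPM to 19.9, 19.2 and 21.2 CPM, with every treated library far above every DMSO library (12.7-fold, log2 3.67 ± 0.14, adjusted p = 1.52e-12). TNFAIP3 followed, from 4.54, 5.65 and 6.05 CPM to 60.9, 62.7 and 62.2 CPM (11.5-fold, log2 3.52 ± 0.10, adjusted p = 3.78e-14). BIRC3 rose 6.03-fold, from 19.4, 21.2 and 20.6 CPM to 126, 121 and 123 CPM (log2 2.59 ± 0.07).

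The ligands CXCL3 and CXCL1 rose 5.55-fold (log2 2.47 ± 0.17) and 5.29-fold (2.40 ± 0.23), and CXCL2 rose 2.82-fold (log2 1.5 ± 0.34, adjusted p = 0.000996). NFKBIA rose 3.54-fold, from 23.3, 23.6 and 24.2 CPM to 85.7, 85.2 and 81.4 CPM. RELB and NFKB2 rose less, both by 1.13 ± 0.07 on the log2 scale. NFKB1 was the exception: its 132, 127 and 125 CPM with DMSO and 123, 121 and 116 CPM with CHX differed by -0.09 ± 0.05 (adjusted p = 0.148). The 3 subunits thus had the smallest CHX changes of the 10 members in these cytoplasmic libraries, a ranking that was not tested. CXCL2, at 1.5 ± 0.34, lay close to RELB and NFKB2. In the nucleus CXCL2 had the smallest change (0.87 ± 0.32).

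In the nucleus of sgAAVS1 cells 9 of 10 members rose, beside 14.4% of genes higher and 10.8% lower, and the member outside was CXCL2 at 0.87 ± 0.32 (adjusted p = 0.0288). CXCL2 had 0.995, 0.784 and 2.04 CPM with DMSO and 2.42, 2.1 and 2.45 CPM with CHX. DMSO replicate 3 lay close to the treated ones, and without it CXCL2 was called at 1.40 (adjusted p = 0.00121). NFKB1 rose here, from 65.8, 68.2 and 64.1 CPM to 165, 156 and 159 CPM (log2 1.28 ± 0.07, adjusted p = 6.83e-11), unlike in the cytoplasm; the difference of the CHX effect between fractions was not tested. BIRC3 had the largest change, from 28.5, 24 and 23.7 CPM to 200, 212 and 217 CPM (8.26-fold, log2 3.05 ± 0.09). CXCL8 changed by 2.65 ± 0.25, TNFAIP3 by 2.32 ± 0.13 and CXCL3 by 2.24 ± 0.21 on the log2 scale.

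NFKB2 rose 3.37-fold in the nucleus, from 158, 165 and 170 CPM to 588, 545 and 529 CPM, and reached 1031 ± 19.8 TPM there. RELB rose by 1.73 ± 0.11, NFKBIA by 1.59 ± 0.10 and CXCL1 by 2.11 ± 0.40 on the log2 scale, the last one 3.08 (adjusted p = 1.51e-06) without the first DMSO library. The median log2 change was 1.93 over the members and 0.01 over all genes. The summed leukocyte list was also higher with CHX in the nucleus, at 177 to 200 CPM, and the colon epithelial list went from 115 to 124 CPM to 263 to 291 CPM. Of these lists ITGAM, CSF1R, CD68 and KRT8 were called higher there and CDX2 lower. The part of these differences was not tested.

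In sgERH cells CHX raised 7 members in the cytoplasm, beside 7.15% of genes higher and 1.88% lower, and all 10 in the nucleus, beside 8.52% higher and 6.29% lower. In the cytoplasm TNFAIP3 rose 7.97-fold, CXCL8 5.26-fold, CXCL3 4.83-fold, CXCL2 4.39-fold and BIRC3 4.03-fold. RELB (0.59 ± 0.07), NFKB2 (0.58 ± 0.07) and NFKB1 (0.24 ± 0.05) stayed under the size threshold. In the nucleus the log2 changes ran from 1.05 ± 0.07 for NFKB1 and 1.08 ± 0.09 for NFKB2 to 2.33 ± 0.12 for TNFAIP3 and 2.35 ± 0.08 for BIRC3. RELB, at 1.12 ± 0.11, fell to 0.95 and out of the calls when a transcript length offset was used.

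**Figure D3:**
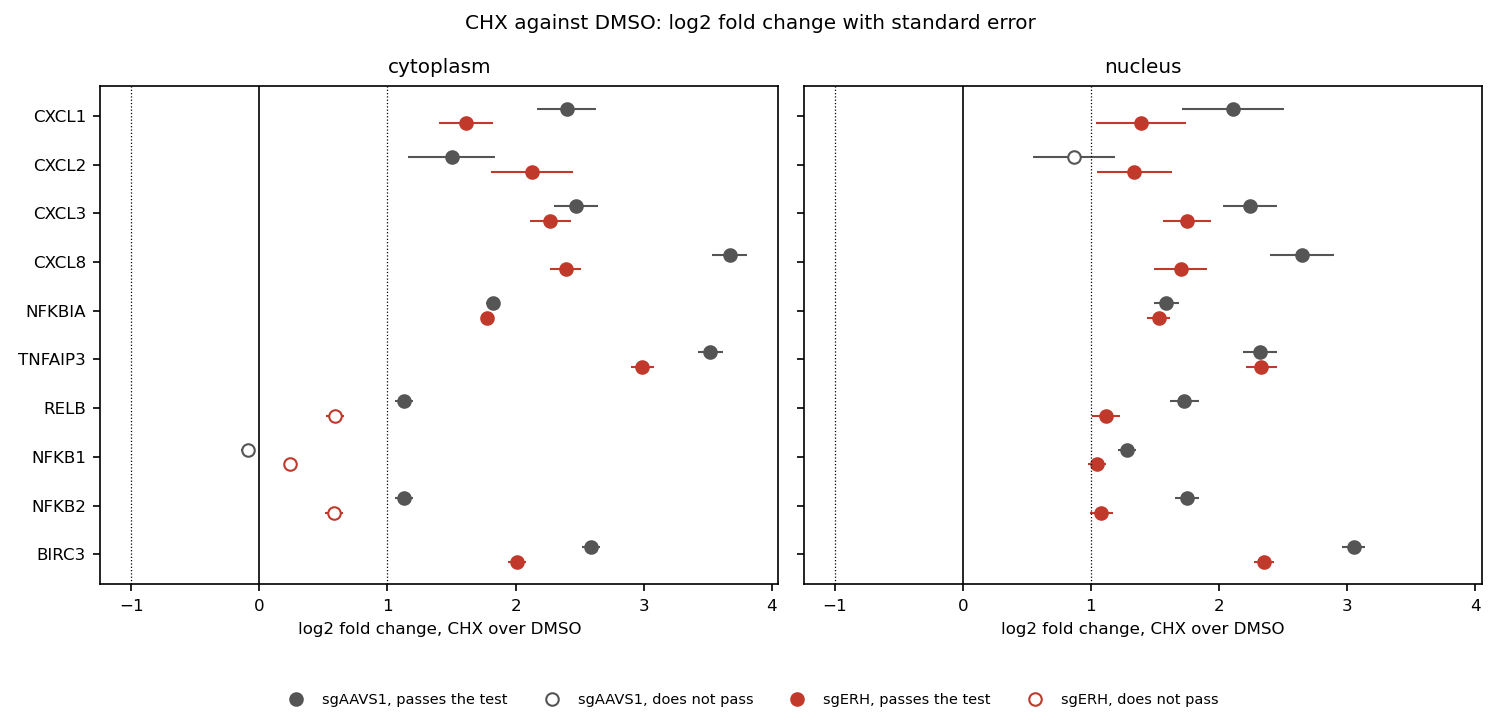
Log2 fold change of CHX against DMSO for each member, with its standard error, in sgAAVS1 and sgERH cells, cytoplasm and nucleus; filled points passed both thresholds. In the cytoplasm the change of CXCL8 is 3.67 in sgAAVS1 and 2.39 in sgERH cells, and that of NFKBIA is nearly the same in both, 1.82 and 1.78.

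The guide was then compared under CHX. These comparisons share the CHX libraries of both guides with the CHX comparisons above, and the values are given side by side. In the cytoplasm CXCL2 and CXCL3 rose in sgERH, 2 of 10 members, beside 5.79% of genes higher; 0 fell, beside 1.43%. CXCL2 had 0.886, 0.769 and 0.565 CPM in sgAAVS1 and 2.44, 2.07 and 2 CPM in sgERH, now with no overlap (log2 1.56 ± 0.30, adjusted p = 0.000445). CXCL3 had 3.27, 2.76 and 2.91 CPM against 6.7, 7.65 and 6.52 CPM (log2 1.22 ± 0.15, adjusted p = 3.81e-06). CXCL8, at 19.9, 19.2 and 21.2 CPM against 36.2, 32.1 and 40.6 CPM, was still clearly apart, with a log2 difference of 0.85 ± 0.11 (adjusted p = 1.19e-05). BIRC3 (0.79 ± 0.07), NFKBIA (0.58 ± 0.05), CXCL1 (0.57 ± 0.20) and TNFAIP3 (0.55 ± 0.08) had smaller differences, all past the adjusted p threshold. That threshold alone passed 8068 of 16130 genes. RELB, NFKB1 and NFKB2 lay at 0.10 ± 0.07, 0.14 ± 0.05 and -0.08 ± 0.07.

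In the nucleus with CHX the ligands CXCL1, CXCL2 and CXCL8 rose in sgERH, 3 of 10 members, beside 5.29% of genes higher; 0 fell, beside 3.68%. CXCL2 had 2.42, 2.1 and 2.45 CPM against 8.06, 10.9 and 5.85 CPM, a wide but separate range (log2 1.83 ± 0.30, adjusted p = 9.8e-05). CXCL8 had 4.69, 6.11 and 6.47 CPM against 9.36, 16.2 and 15.3 CPM (log2 1.24 ± 0.21), and CXCL1 was at 1.19 ± 0.35 (adjusted p = 0.00982). NFKBIA, at 0.98 ± 0.09 (adjusted p = 2.67e-07), lay at the edge of the size threshold and was called in 5 of 12 alternatives. NFKB2 was lower in sgERH, with 588, 545 and 529 CPM against 472, 363 and 459 CPM and no overlap (log2 -0.36 ± 0.08, adjusted p = 0.00203). BIRC3 overlapped, at 200, 212 and 217 CPM against 189, 209 and 206 CPM.

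The difference between the guide effects with CHX and with DMSO was tested directly. In the cytoplasm 1 member was called, CXCL8 at -1.27 ± 0.19 (adjusted p = 0.000121), beside 2.61% of genes called lower. The guide effect on CXCL8 was thus smaller under CHX, 1.8-fold against 4.35-fold. A further 5 members passed the adjusted p alone: BIRC3 at -0.58 ± 0.10, NFKB2 at -0.55 ± 0.10, RELB at -0.53 ± 0.10, TNFAIP3 at -0.52 ± 0.13 and, in the other direction, NFKB1 at 0.34 ± 0.08. Over all genes the adjusted p alone passed 4174 of 16130. NFKBIA had a difference of -0.04 ± 0.07 (adjusted p = 0.715), the closest to 0.

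In the nucleus 0 members were called for this difference by edgeR or DESeq2, beside 3.62% of genes. In edgeR 5 had an unadjusted p under 0.05 and 4 passed its adjusted p alone: BIRC3 at -0.69 ± 0.11, NFKB2 at -0.67 ± 0.12, RELB at -0.61 ± 0.16 and CXCL8 at -0.95 ± 0.32 (adjusted p = 0.0465). Over all genes the adjusted p alone passed 3428 of 17330. CXCL8 passed both thresholds without the first sgAAVS1 library with CHX (-1.08), without the second sgERH library with CHX (-1.10) and without the third (-1.04). CXCL1 went from -0.73 ± 0.52 to -1.66 (adjusted p = 0.0144) without the first sgAAVS1 library with DMSO. TNFAIP3 was at 0.01 ± 0.18 (adjusted p = 0.987).

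Within sgAAVS1 cells with DMSO, the share of each mRNA in nuclear RNA was compared with its share in cytoplasmic RNA. CXCL2, CXCL3 and NFKB2 were higher in the nucleus, 3 of 10 members, beside 31.9% of genes; NFKB1 and CXCL8 were lower, 2 members, beside 26.5%. NFKB2 stood 2.52-fold higher (log2 1.33 ± 0.06, adjusted p = 9.88e-13), and NFKB1, its closest relative, 0.445-fold (log2 -1.17 ± 0.05, adjusted p = 5.66e-13). CXCL2 (2.07 ± 0.44) and CXCL3 (1.76 ± 0.29) had the largest log2 differences. The CXCL8 value, -1.0 ± 0.24, sat on the threshold and lost its call in 9 of 12 alternatives, and NFKB1 went to -0.64 with a transcript length offset. CXCL1, at 0.88 ± 0.48, went to -0.06 without the first nuclear library, and was called without the second (1.14, adjusted p = 0.0447) or the third (1.24, adjusted p = 0.0226) and by DESeq2 (1.01, adjusted p = 0.0448). TNFAIP3 was at 0.87 ± 0.15 (1.02 and called without the second nuclear library), RELB at -0.36 ± 0.11, NFKBIA at -0.27 ± 0.08 and BIRC3 at 0.10 ± 0.08. These values rest on counts, which do not correct for transcript length. As TPM, NFKB1 (51.6 in the nucleus, 39.3 in the cytoplasm), RELB (23.8 and 10.3) and NFKBIA (33.5 and 20.3) were higher in the nucleus. CXCL8 had 1.52 and 1.28 TPM, within its spread, and NFKB2 274 and 21.8 TPM. The direction for NFKB1, RELB and NFKBIA thus depends on the measure, and the TPM differences were not tested.

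Reads that cross an exon-intron boundary come from RNA that is not yet spliced at that site. They were summed per gene over the introns that overlap no known exon, which left out CXCL3, and were compared in the nucleus for the other 9 members. With DMSO 1 member rose in sgERH, TNFAIP3, beside 2.73% of 11976 genes. It had 43, 23 and 18 boundary reads in sgAAVS1 and 77, 69 and 72 in sgERH libraries, apart but few (log2 1.19 ± 0.34, adjusted p = 0.0148). The call was lost without the second (1.10, adjusted p = 0.0644) or the third (0.97, adjusted p = 0.0875) sgAAVS1 library, without the first sgERH library (1.06, adjusted p = 0.0604), and with the scale factors of the gene counts (1.00, adjusted p = 0.0611).

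NFKBIA had 186, 169 and 175 boundary reads in sgAAVS1 and 363, 440 and 411 in sgERH, well apart (log2 0.99 ± 0.17, adjusted p = 0.000172), and passed the size threshold in 5 of 9 alternatives. RELB was at 0.82 ± 0.13 (adjusted p = 9.07e-05), and CXCL8, with 2, 1 and 0 against 4, 7 and 12 reads, at 2.57 ± 1.26 (adjusted p = 0.166), too few reads to show a difference at this depth. NFKB2 (0.20 ± 0.08), NFKB1 (0.23 ± 0.15) and BIRC3 (0.50 ± 0.24) missed the adjusted p threshold. The medians were 0.82 over the 9 members and -0.02 over all genes. With the scale factors of the gene counts the medians became 0.62 and -0.22, a shift of the whole set.

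With CHX 1 member rose in sgERH, CXCL2 at 1.54 ± 0.42 (adjusted p = 0.00901), beside 4.26% of genes; it was lost without the third sgAAVS1 library (1.25, adjusted p = 0.0609) and with the gene-count scale factors (0.94, adjusted p = 0.0736). NFKBIA was at 0.98 ± 0.16 and BIRC3 at 0.77 ± 0.20. The median was 0.67 over the members and 0.01 over all genes, and with gene-count scale factors 0.13 and -0.58. Under those factors 144 genes were higher and 1936 lower, so directions in this comparison hold relative to the other genes' boundary reads.

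CHX raised the boundary reads of 7 members in sgAAVS1 cells, beside 16.1% of genes, and of 8 in sgERH cells, beside 12.2%. In sgAAVS1 the log2 changes were 3.01 ± 0.23 for BIRC3, 2.99 ± 0.33 for TNFAIP3, 2.02 ± 0.13 for RELB, 1.72 ± 0.08 for NFKB2, 1.56 ± 0.15 for NFKB1 and 1.5 ± 0.17 for NFKBIA. CXCL1 (1.17 ± 0.73) and CXCL2 (0.86 ± 0.44) were not called, but CXCL2 was at 1.14 (adjusted p = 0.0444) without the third CHX library. CXCL8 was called at 3.44 ± 1.24 on 0 to 24 reads, and lost its call without the second (adjusted p = 0.0663) or the third (adjusted p = 0.0927) DMSO library or the first CHX library (2.46, adjusted p = 0.16). TNFAIP3 went from 43, 23 and 18 reads to 188, 210 and 228, and NFKB2 from 3821, 3305 and 3535 to 12308, 10411 and 10538. Boundary reads and total counts of the inhibitors, the subunits and BIRC3 were thus both higher with CHX in these nuclei. In sgERH the members called were all but CXCL8 (1.36 ± 0.99); CXCL1 (2.09 ± 0.70) lost its call without the second or the third DMSO or the second CHX library, at 1.75 to 1.79, and CXCL2 (1.35 ± 0.41, at 0.97) and NFKB2 (1.31 ± 0.08, at 0.95) lost theirs with gene-count scale factors, which moved the median over all genes from 0.07 to -0.29 and over the members from 1.48 to 1.10.

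Retention of single introns is given as the IR ratio, the depth over the intron divided by that depth plus the spliced reads, so that 0 is fully spliced and 1 unspliced. In nuclear sgAAVS1 RNA with DMSO the highest ratios among numbered introns were 0.594 ± 0.0206 in NFKB2 intron 16, 0.472 ± 0.132 in CXCL2 intron 3, 0.448 ± 0.112 in RELB intron 2, 0.423 ± 0.0717 in CXCL3 intron 2, which overlaps a known exon, and 0.392 ± 0.214 in TNFAIP3 intron 4. NFKB1 intron 17 had 0.223 ± 0.0523, CXCL8 intron 2 0.0434 ± 0.0752, and CXCL1 intron 1 0, 0 and 0.795 on few reads. For NFKBIA and BIRC3 the highest ratios belonged to intervals inside known exons, of 72 and 2560 bases, so NFKBIA intron 4 (0.288 ± 0.0629) and BIRC3 intron 2 (0.29 ± 0.0925) are given instead, chosen after their values were seen. Of the 100 introns, 22 had a ratio of at least 0.2; their median length was 311 bases and their median GC content 50.2%, against 1231 bases and 44.1% in the other 78. The 22 were taken without a filter on depth and include CXCL1 intron 1 and the BIRC3 interval inside a known exon. Introns of different genes were pooled, and the contrast was not tested. GT and AG ends were found in 98 of the 100.

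NFKB2 intron 16 (GRCh38 chr10:102400492-102400654, plus strand, 163 bases, of 22 introns) is printed because its ratio was the highest and differed between the guides; below it stands its downstream neighbour, intron 17 (chr10:102400825-102400946, 122 bases), which was almost fully spliced. Retention was not confined to intron 16. In nuclear sgAAVS1 RNA with DMSO its upstream neighbour, intron 15, had a ratio of 0.354, and intron 11 had 0.266. Capitals mark the 10 exon bases on each side.
NFKB2 intron 16: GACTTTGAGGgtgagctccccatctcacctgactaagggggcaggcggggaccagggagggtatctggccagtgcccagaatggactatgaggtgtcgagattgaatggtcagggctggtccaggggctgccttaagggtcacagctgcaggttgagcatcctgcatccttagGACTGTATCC
NFKB2 intron 17: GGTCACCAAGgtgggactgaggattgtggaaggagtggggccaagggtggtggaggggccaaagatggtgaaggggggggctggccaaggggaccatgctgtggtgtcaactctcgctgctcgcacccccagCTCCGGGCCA

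The nuclear IR ratio of NFKB2 intron 16 was 0.615, 0.574 and 0.592 in sgAAVS1 and 0.5, 0.467 and 0.437 in sgERH with DMSO. With CHX it was 0.649, 0.679 and 0.63 in sgAAVS1 and 0.405, 0.416 and 0.42 in sgERH. The sgERH libraries were lower in both treatments without overlap, with a log2 change of intron depth relative to spliced reads of -0.74 ± 0.14 (adjusted p = 0.0124) with DMSO and of -1.42 ± 0.18 (adjusted p = 0.00144) with CHX, the latter past the size threshold. Over all nuclear introns tested the median was -0.37 with DMSO and -0.96 with CHX, where 16.3% were called lower. In the cytoplasm its ratio was at most 0.018 in any library. Intron 17 had mean nuclear ratios of 0.00866 to 0.0109 in the 4 groups.

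With DMSO 79 member introns were tested in the nucleus; 4 were lower in sgERH, a share of the 79 near the 4.58% of all 120030 introns called lower, and 0 were higher, beside 1.45% (by edgeR, 10 were lower and 0 higher at an unadjusted p under 0.05). They were NFKB2 intron 6 (log2 -1.23 ± 0.24, adjusted p = 0.0119), NFKBIA intron 2 (-1.45 ± 0.28, adjusted p = 0.0131), BIRC3 intron 7 (-1.93 ± 0.46, adjusted p = 0.0272) and CXCL2 intron 3 (-1.73 ± 0.47, adjusted p = 0.045). NFKB2 intron 6 had ratios of 0.117, 0.0861 and 0.101 in sgAAVS1 and 0.0401, 0.0611 and 0.0385 in sgERH. NFKBIA intron 2 had 0.145, 0.205 and 0.211 against 0.0671, 0.0987 and 0.0727, and CXCL2 intron 3 0.618, 0.361 and 0.437 against 0.227, 0.208 and 0.22. In these 3 the groups did not overlap, but they had been selected by the test. The share of all introns without overlap was not taken. Leaving out 1 library ended the call of CXCL2 intron 3 in all 6 fits and that of BIRC3 intron 7 in 4. The call of NFKBIA intron 2 was lost without the second or the third sgAAVS1 library (adjusted p = 0.0554 and 0.0623), and that of NFKB2 intron 6 without the first (adjusted p = 0.0554). A replicate block also ended the calls of BIRC3 intron 7 (adjusted p = 0.0564) and CXCL2 intron 3 (adjusted p = 0.0832). Over the 79 introns 49 (62%) lay below 0, with a median log2 of -0.20, and the median over all introns tested was -0.37.

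With CHX 97 member introns were tested in the nucleus and 5 were lower in sgERH, beside 16.3% of 115807 introns. Besides NFKB2 intron 16 they were NFKB2 intron 11 (-1.07 ± 0.18, adjusted p = 0.00409), RELB intron 9 (-1.05 ± 0.29, adjusted p = 0.0276), NFKB1 intron 16 (-1.01 ± 0.30, adjusted p = 0.0344) and TNFAIP3 intron 7 (-1.48 ± 0.40, adjusted p = 0.0258). NFKB2 intron 11 went from 0.338, 0.321 and 0.314 in sgAAVS1 to 0.182, 0.17 and 0.207 in sgERH, and was at -0.99, short of the size threshold, without the second sgERH library. The calls of RELB intron 9, NFKB1 intron 16 and TNFAIP3 intron 7 were lost without any single one of the sgAAVS1 libraries, with adjusted p = 0.0746 to 0.121, that of RELB intron 9 also without the second sgERH library (-0.83) and that of NFKB1 intron 16 without the first or second (-0.92 each). Below 0 lay 69 of 97 introns (71.1%), with a median of -0.43 beside -0.96 over all introns tested.

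In the cytoplasm 22 member introns were tested with DMSO and 0 were called by edgeR (3 had an unadjusted p under 0.05, 2 of them higher), beside 1.64% of 41336 introns, and 42 with CHX, of which 1 was higher, beside 0.682% of 41220. That one was TNFAIP3 intron 4 (GRCh38 chr6:137875836-137875995, 160 bases), with ratios of 0.0565, 0.052 and 0.0481 in sgAAVS1 and 0.0906, 0.113 and 0.129 in sgERH (log2 1.15 ± 0.24, adjusted p = 0.0443). The groups did not overlap, yet the call was lost in each of the 6 fits without 1 library, at 1.00 to 1.31 and adjusted p = 0.0657 to 0.171. The median log2 over the member introns was 0.90 with DMSO and 0.57 with CHX, beside 0.51 and 0.29 over all introns tested.

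CHX moved single ratios in control nuclei, which are given as values with no test. RELB intron 2 (6817 bases) went from 0.448 ± 0.112 with DMSO to 0.789 ± 0.066 with CHX, and NFKB1 intron 14 (1187 bases), chosen after its values were seen, from 0.102 ± 0.018 to 0.422 ± 0.0211. NFKB1 intron 17 stayed at 0.223 ± 0.0523 and 0.233 ± 0.0111. In sgERH nuclei NFKB1 intron 14 had 0.134 ± 0.00581 with DMSO and 0.292 ± 0.0522 with CHX.

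**Figure D4:**
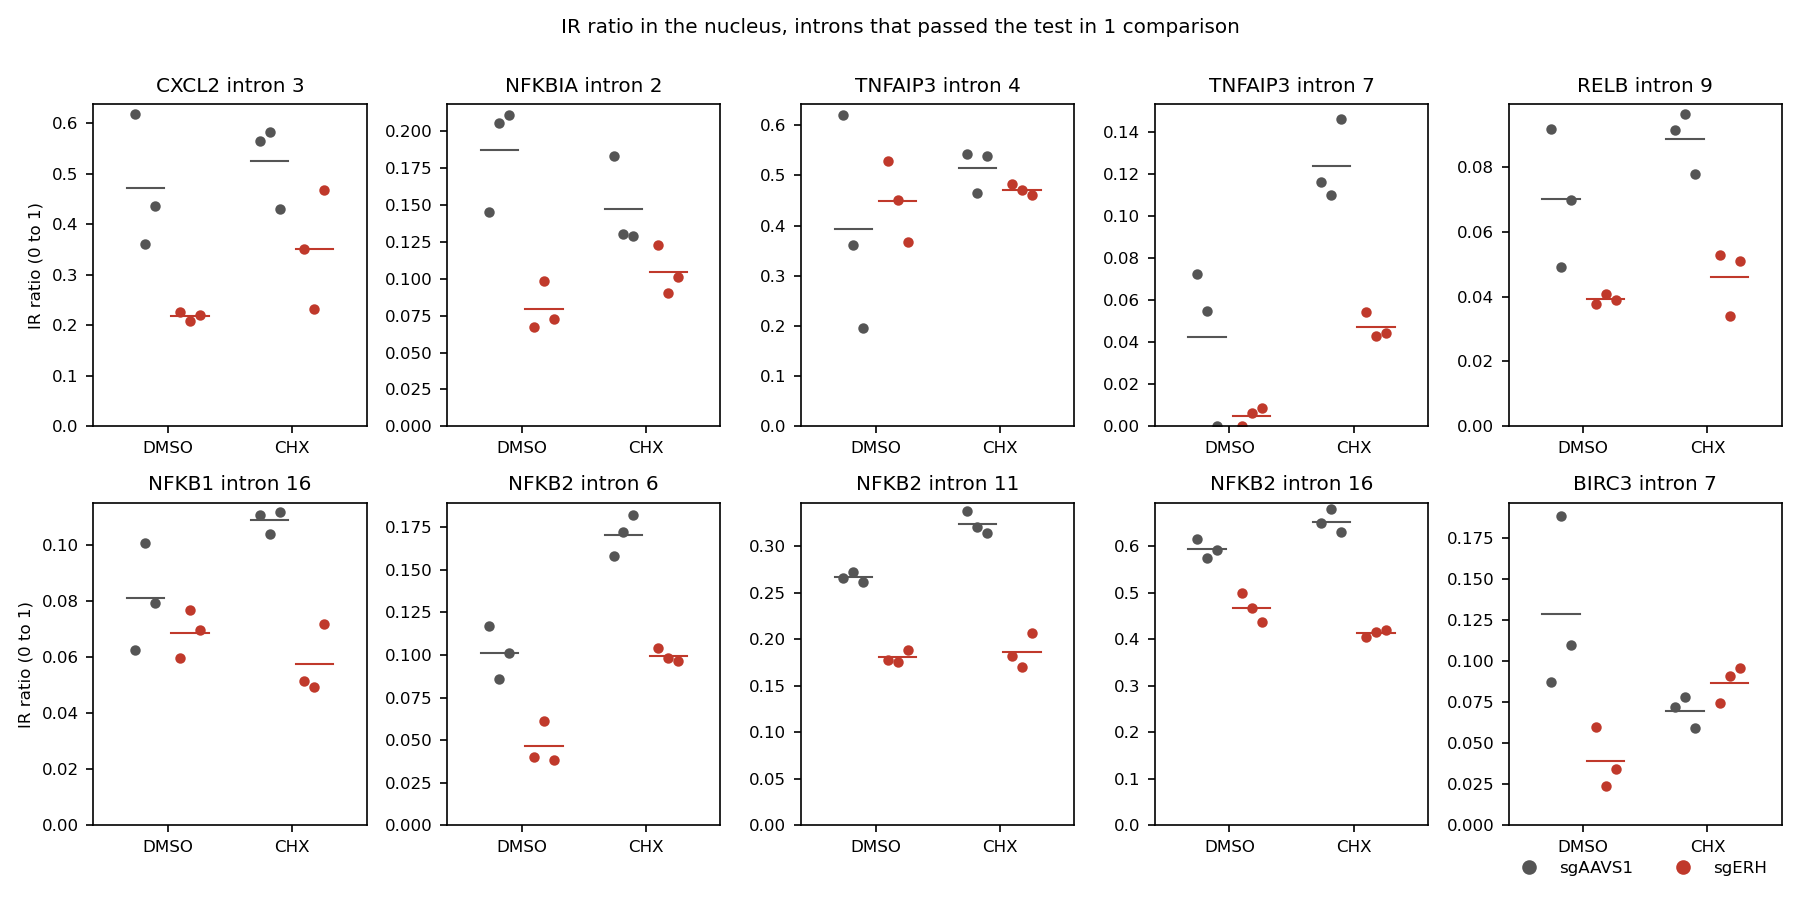
Intron retention ratio (IR ratio, 0 to 1) in nuclear libraries for the 10 member introns called in 1 comparison (TNFAIP3 intron 4 in the cytoplasm, the others in the nucleus); each point is 1 library, each line a group mean, and each panel has its own range. NFKB2 intron 16 lies at 0.574 to 0.679 in the sgAAVS1 libraries and at 0.405 to 0.5 in the sgERH libraries.

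The deposited counts per transcript model give a second view of retained introns. Models annotated as retained-intron took 50.4 ± 1.47% of the nuclear counts of NFKB2 in sgAAVS1 cells with DMSO and 0.876 ± 0.209% of its cytoplasmic counts. In nuclear sgERH the share was 44 ± 2.03%, from libraries at 43.9, 42 and 46.1% against 48.8, 51.7 and 50.8%, without overlap. With CHX it was 58.3 ± 1.12% in sgAAVS1 and 49.1 ± 0.782% in sgERH. NFKB1 showed 37.5 ± 3.22% and 26.3 ± 1.92% with DMSO and 52.5 ± 3.44% and 40.8 ± 5.48% with CHX, lower in sgERH in both treatments. NFKBIA had 36.5 ± 4.25% and 26.7 ± 1.28% with DMSO and 33.2 ± 2.41% and 23.7 ± 2.59% with CHX. In TNFAIP3 the 3 sgAAVS1 libraries with DMSO spread from 9.96 to 30.8% and overlapped sgERH at 15.6 to 21.6%, while with CHX sgAAVS1 at 23, 29.8 and 28.1% lay above sgERH at 20.3, 16 and 17.8%. These shares come from the deposited transcript estimates, were taken for the members alone and were not tested.

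**Figure D5:**
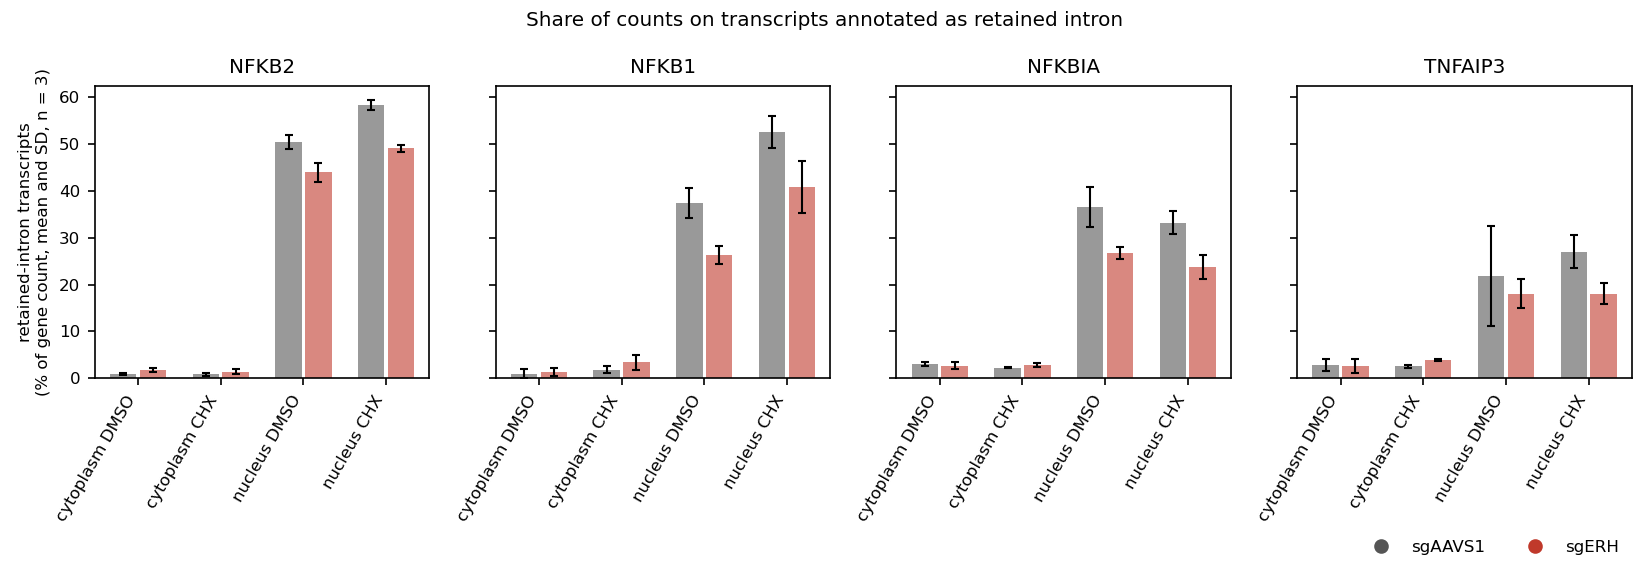
Share (percent) of the counts of NFKB2, NFKB1, NFKBIA and TNFAIP3 on transcript models annotated as retained-intron, by fraction, treatment and guide; bars are means and error bars SD (n = 3). Nuclear NFKB2 stands at 44% in sgERH with DMSO and 58.3% in sgAAVS1 with CHX, against at most 1.76% in the cytoplasm.

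Single models moved within genes. NFKB1-225, a retained-intron model, held 9.28 ± 1.29% of nuclear NFKB1 with DMSO and 30.3 ± 1.03% with CHX in sgAAVS1, and 10.8 ± 1.83% and 22.8 ± 5.72% in sgERH. Models of NFKB1 annotated as targets of nonsense-mediated decay, which needs translation, held 8.4 ± 2.57% of its cytoplasmic counts with DMSO and 18.4 ± 4.49% with CHX in sgAAVS1, and 8.11 ± 0.806% and 24.1 ± 6.48% in sgERH. Every CHX library lay above every DMSO library in both guides, but such shares were taken for the members alone and were not tested. In the nucleus this share of NFKB1 was 9.58 ± 4.29% with DMSO and 7.22 ± 2.94% with CHX in sgAAVS1, and 12 ± 3.75% and 15.6 ± 1.14% in sgERH, with overlapping libraries in both. For RELB the share of such models was lower on average with CHX, at 5.72 ± 8.64% with DMSO and 3.93 ± 3.12% in the cytoplasm of sgAAVS1, 7.32 ± 4.29% and 3.53 ± 0.89% in that of sgERH, and 19.9 ± 6.7% and 9.22 ± 3.91% in the nucleus of sgAAVS1, with overlapping libraries in each. CXCL3-204, a model without a defined coding sequence, held 72.5 ± 5.32% of nuclear and 38.1 ± 14.4% of cytoplasmic CXCL3 in sgAAVS1 with DMSO. BIRC3-206 went from 6.17 ± 5.67% of nuclear BIRC3 in sgAAVS1 to 20 ± 4.04% in sgERH with DMSO, and RELB-207 from 19.7 ± 6.57% to 8.65 ± 4.21%, the latter with overlapping libraries.

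Other genes of the pathway were followed in lists chosen by function. Of 40 further NF-kB response genes, 32 were tested in the cytoplasm. With DMSO 6 rose and 1 fell in sgERH, beside 9.3% of all genes higher and 2.16% lower. The median log2 was 0.40, beside 1.00 for the members. PTGS2, the inducible prostaglandin synthase, rose by 4.35 ± 0.96 (from 0.0121 to 0.257 CPM), and TNIP3, a partner of A20, by 2.39 ± 0.90. BCL2A1, a BCL2 relative induced by NF-kB, fell by 1.24 on the log2 scale (SE 0.08, adjusted p = 1.97e-09), from 187 to 78.9 CPM. In the nucleus 3 of 31 rose, beside 4.77% of all genes, among them PTGS2 (2.33 ± 0.77) and the adhesion molecule ICAM1 (1.18 ± 0.09, from 47.4 to 108 CPM). With CHX in control cells 11 of 32 rose and 1 fell in the cytoplasm, beside 13.6% of all genes higher and 6.31% lower. GADD45B (3.68 ± 0.07) and PTGS2 (3.29 ± 1.02, from 0.0121 CPM with DMSO) led by log2 change, and NFKBID fell (-1.83 ± 0.15). In the nucleus 12 of 31 rose and 3 fell, beside 14.4% of all genes higher and 10.8% lower. The cytokines CCL20 (4.77 ± 1.38) and IL1A (3.30 ± 0.67) led by log2 change, with wide standard errors. NFKBID (-1.92 ± 0.10) and PLAU (-1.13 ± 0.16) were among those that fell.

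Of 35 signalling components upstream of NF-kB, 33 were tested in the cytoplasm and 34 in the nucleus. With DMSO 1 rose in sgERH in each, TLR3, the receptor for double-stranded RNA (1.08 ± 0.17 and 1.84 ± 0.30). Of all genes 9.3% and 4.77% rose. The median of that list was -0.06 in the cytoplasm and -0.16 in the nucleus. With CHX in control cells 3 rose and 3 fell in the cytoplasm, beside 13.6% of all genes higher and 6.31% lower. Among them were MAP3K14, the kinase NIK (3.68 ± 0.12), and TRAF6 (1.07 ± 0.06), against TRAF3, which holds NIK down (-1.74 ± 0.06), and CUL1 (-1.5 ± 0.06). In the nucleus 4 rose, led by MAP3K7 (1.30 ± 0.07) and TAB2 (1.19 ± 0.07), and 4 fell, led by LTBR (-1.53 ± 0.09) and CUL1 (-1.41 ± 0.09). Of all genes 14.4% rose there and 10.8% fell. The CHX counts of this list lay near the shares over all genes. Of 19 other CXC ligands and receptors 2 were tested in the cytoplasm and 1 in the nucleus: CXCL11 rose with CHX (2.92 ± 0.91) in the cytoplasm, and 0 were called for sgERH with DMSO.

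Of 19 binding and decay factors of AU-rich mRNAs 0 were called for sgERH in the cytoplasm with DMSO. Of all genes 9.3% rose and 2.16% fell there, and 4.77% and 1.73% in the nucleus. In the nucleus HNRNPD (AUF1) fell from 630 to 247 CPM (log2 -1.35 ± 0.10, adjusted p = 1.68e-08) and TIA1 from 259 to 114 CPM (-1.18 ± 0.08, adjusted p = 9.8e-09). With CHX in control cells 2 rose in the cytoplasm, ZFP36 (1.31 ± 0.10) and ZC3H12A (1.21 ± 0.11), and ZFP36L2 fell (-1.89 ± 0.10). Of all genes 13.6% rose and 6.31% fell there, and 14.4% and 10.8% in the nucleus. In the nucleus 3 rose, led by RC3H2 (1.30 ± 0.08) and XRN1 (1.19 ± 0.07), and 3 fell, led by ZFP36L2 (-2.71 ± 0.22) and ZFP36L1 (-1.15 ± 0.06). Of 14 AP-1 and other factors, 3 rose in sgERH in the cytoplasm with DMSO, led by ATF3 (2.02 ± 0.11) and CEBPB (1.34 ± 0.10), and 5 in the nucleus, led by JUND (1.70 ± 0.23) and MAFF (1.65 ± 0.09), beside 9.3% and 4.77% of all genes. With CHX in control cells 8 rose in the cytoplasm, led by ATF3 (4.95 ± 0.11) and FOS (3.78 ± 0.08), and 7 in the nucleus, led by ATF3 (3.45 ± 0.16) and MAFF (3.43 ± 0.10), beside 13.6% and 14.4% of all genes. Of the nuclear RNAs described with the libraries, KCNQ1OT1 and NEAT1 rose in sgERH in the cytoplasm with DMSO, 2 of 3 tested, and SNHG14 (4.09 ± 1.20) rose with CHX in the nucleus of control cells.

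Over the 24 libraries, centred within each fraction, the log2 CPM of the members ran together, with Pearson's r between pairs from 0.44 (CXCL2 and NFKB1) to 0.98 (CXCL3 and NFKBIA). The genes outside the set most like CXCL8 were SPRY2 (0.98), ZNF442 (0.97) and CCRL2 (0.97), those most like NFKBIA were ZNF436 (0.98), JUNB (0.97) and NFKBIE (0.96), and among those most like NFKB2 were SPAG9 (0.99) and TRIM5 (0.98), of 10849 genes compared. All of these share the same libraries and the large step between DMSO and CHX, so the values describe likeness of pattern alone.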

How the data were processed

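Poly(A) RNA of 24 nuclear and cytoplasmic libraries of RKO cells was analysed. The authors quantified transcripts with salmon against GRCh38 and Ensembl release 110; the deposited expected counts and TPM values are per transcript, and both were summed here by gene. The deposited intron tables came from IRFinder-S and hold read depth over each intron (signal), counts of boundary and spliced reads, and the IR ratio, a fraction. The transcript lengths deposited beside them served as an offset in 1 alternative. The strand setting is not given in the sources used here, so overlapping and antisense genes cannot be separated.

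Gene counts were rounded, filtered (filterByExpr, minimum count 10), TMM-scaled and tested with edgeR 4.0.16 in R 4.3.3 (quasi-likelihood test, Benjamini-Hochberg adjustment over all genes tested), in 1 fit of 12 libraries per fraction, or of the 12 DMSO libraries between fractions. A gene was called, and is said to have risen or fallen, when its adjusted p was 0.05 or less and its log2 change 1 or more in either direction. Boundary reads per gene were tested in the same way. Introns were tested in edgeR as depth relative to spliced reads (both rounded), with 6 libraries per comparison, a mean of depth plus spliced reads of at least 10, a mean depth of at least 1 and, for a call, an IR ratio of at least 0.05 in the higher group. DESeq2 1.42.0, other scalings and filters, a replicate block and leaving out each library were alternatives. The scripts were tested on simulated data.

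The members and gene lists were chosen with earlier results of these data known. Outside the members, the genes named are up to 2 called genes of largest increase and 2 of largest decrease from each list in the sgERH comparisons with DMSO and the CHX comparisons in sgAAVS1, the 3 genes most like CXCL8, NFKBIA and NFKB2 (mean of at least 5 CPM; 1 of them is not reported here), every called member intron, the intron of highest IR ratio per member, and transcripts with at least 10% of a gene's counts in a group. Introns outside this rule are marked where they are given, as chosen after their values were seen or as a neighbour. Library totals ran from 27.8 to 79.5 M counts.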

Additional observations from a re-analysis of the deposited data

Results flagged for a closer look

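These 13 differences between effects passed the adjusted p of edgeR's test of the difference itself, each on the log2 scale. Over all genes the adjusted p alone passed 4174 of 16130 (treatments, cytoplasm), 3428 of 17330 (treatments, nucleus) and 5511 of 16856 (fractions). The sgERH effect differed between CHX and DMSO in the cytoplasm for CXCL8 (-1.27), BIRC3 (-0.58), NFKB2 (-0.55), RELB (-0.53) and TNFAIP3 (-0.52), where it was lower with CHX, and for NFKB1 (0.34), where it was higher. In the nucleus the same test gave lower effects with CHX for CXCL8 (-0.95), BIRC3 (-0.69), NFKB2 (-0.67) and RELB (-0.61). Between fractions with DMSO the sgERH effect was higher in the nucleus for NFKBIA (0.44) and NFKB1 (0.33), and lower for BIRC3 (-0.72). Of the 13, CXCL8 in the cytoplasm was past the size threshold of 1.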

How the results depend on the processing

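Of 247 counts of members under an alternative, 203 stayed within 1.5 times the reported count, and of 2134 values of single members 1982 kept direction and side of the threshold. With the adjusted p alone, the members passing became 10, not 5 (sgERH, cytoplasm, DMSO), 8, not 2 (cytoplasm, CHX), 9, not 5 (nucleus, DMSO) and 7, not 3 (nucleus, CHX); for the difference between treatments they became 6, not 1 (cytoplasm) and 4, not 0 (nucleus), between fractions 8, not 5, and for the guide effect between fractions 3, not 0. Over all genes that setting gave 9215, 8068, 6267 and 7766 for the 4 sgERH comparisons, 10501 and 10163 for CHX in sgAAVS1, 8471 and 8389 for CHX in sgERH (cytoplasm and nucleus), 4174 and 3428 for the difference between treatments and 5511 for the guide effect between fractions. A transcript length offset left 3 members, not 5, between fractions, and turned NFKB1 (sgERH, nucleus, DMSO) to -0.04, BIRC3 (sgERH, nucleus, CHX) to 0.14, RELB (nucleus against cytoplasm) to 0.16 and CXCL3 (guide effect, nucleus minus cytoplasm) to 0.04. Gene-count scale factors took the boundary-read counts for sgERH from 1 to 0 with either treatment, moved all genes with CHX from 704 to 2080 and turned CXCL8 to -0.03, RELB to -0.30 and NFKB1 to -0.48 (adjusted p = 0.0286) there; summing all introns gave 2 and 2. With 12 libraries fitted together 0 cytoplasmic introns passed with CHX, not 1. An IR ratio minimum of 0.1 left 440 and 264 introns in all in the cytoplasm.

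Leaving out 1 library gave 0 to 1 members for the difference between treatments in the nucleus and for the guide effect between fractions, 0 to 2 for boundary reads with sgERH under either treatment, 0 to 0 cytoplasmic introns with CHX, 1 to 3 nuclear introns with DMSO and 2 to 7 with CHX. Single values that changed sign ran, for the difference between treatments in the nucleus, from -0.09 to 0.17 (TNFAIP3), -0.04 to 0.72 (CXCL2) and -0.16 to 0.01 (NFKBIA); for the guide effect between fractions from -0.04 to 0.27 (CXCL8) and -0.36 to 0.18 (CXCL3); for CXCL1 between fractions from -0.06 to 1.24; and for boundary reads with sgERH from -0.10 to 0.92 (CXCL1, DMSO), -0.01 to 0.16 (NFKB1, CHX) and -0.38 to 1.46 (CXCL8, CHX). The causes were not tested.

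Replicate numbers did not pair the libraries throughout: same-numbered libraries deviated together by more than 0.1 in 6 of 18 pairs within the cytoplasm, 7 of 18 within the nucleus and 19 of 48 between fractions. In 4 of 28 pairs of groups all 3 same-numbered pairs passed 0.1, among them sgAAVS1 and sgERH in the cytoplasm with DMSO (0.18, 0.11 and 0.22), where the block left the count of called members at 5. With a replicate block 0 cytoplasmic member introns passed with CHX, not 1, and 2 nuclear ones with DMSO, not 4 (BIRC3 intron 7 and CXCL2 intron 3 were lost); TNFAIP3 for the difference between treatments in the nucleus was -0.01, not 0.01. Cytoplasmic CXCL2 with DMSO rests on 12 to 38 counts a library.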
